A study of Drosophila melanogaster with 9 samples.

Results

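Rhodopsin maturation, chromophore and shut-off genes were followed across the day in heads of Drosophila melanogaster. The set was chosen by gene symbol: ninaA, ninaB, ninaD, ninaG, santa-maria, Arr1, Arr2, rdgB, rdgC and Gprk1. Of these 10 genes, 9 were named by probe sets of the Affymetrix array. They had 11 probe sets, with rdgB and rdgC having 2 each, out of 11982 named genes and 18769 probe sets in all. No probe set named ninaA, which encodes a chaperone of rhodopsin, and it was not analysed here. All 11 probe sets passed the filter on low values.

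All arrays came from 1 strain, called 5073 in the labels, with 3 arrays taken at zeitgeber time 3 (ZT3, in hours from lights-on) and 2 at ZT15, while ZT7, ZT11, ZT19 and ZT23 have 1 array apiece. The 6 times lie 4 h apart. The labels give no genotype, sex, age, light schedule or number of heads per array, and they do not say whether replicate arrays came from separate flies, so p-values measure only the spread between these arrays. Levels are the authors' GCRMA values on a log2 scale, where a difference of 1 is a 2-fold change. Levels of different probe sets are not comparable with each other. Fewer photoreceptors and less RNA per photoreceptor cannot be told apart in whole heads.

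Fly rhodopsin is an opsin protein joined to a chromophore made from dietary carotenoids. Carotenoids are taken up by scavenger receptors and cleaved to the chromophore, and the opsin needs it to mature and leave the endoplasmic reticulum. After light absorption the active pigment is phosphorylated by a kinase, bound by arrestins and later dephosphorylated, while the membrane phosphoinositides used up by the response are replaced. Mutants of these genes are classic models of visual failure and retinal degeneration.

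Among the 9 arrays, ZT3 replicate 1 and ZT15 replicate 2, stood apart from the others. They correlated at r = 0.988 with each other across the 12105 probe sets tested and at 0.752 to 0.905 with the other 7 arrays, which correlated at 0.915 or more among themselves. The median of the testis and accessory gland list was 3.67 and 3.56 in these 2 arrays and 9.06 to 11.40 in the other 7. The gut list lay at 4.15 to 5.69 in ZT15 replicate 2 and the ZT3 arrays and at 8.22 to 10.09 in the other 5. Transcripts of these body parts go against the head label of the arrays that hold them. Of 19 photoreceptor genes listed, 11 were measured beside the members, among them chp, trp, inaC and inaD. The listed rhodopsin genes, ninaE, Rh3, Rh4, Rh5 and Rh6, were not among these 11. The 11 genes measured had array medians between 13.10 and 13.75. The medians were lowest at ZT23 and ZT19 and highest in ZT3 replicate 2. The mean of these genes, used later as a covariate, was lowest at ZT19 (12.39) and ZT15 replicate 1 (12.54), with ZT23 at 12.62. Results are therefore given also with the 2-array set (ZT3 replicate 1 and ZT15 replicate 2) as a block in the fit, and without it. Neither way accounts for the gut list, in which all ZT3 arrays lay low and the ZT7, ZT11, ZT19 and ZT23 arrays high. Gut RNA and time therefore cannot be told apart between ZT3 and those times.

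The arrestin genes had the smallest spans of all members over the 9 arrays, though not over the 7 outside the 2-array set. Arr2, which encodes the major arrestin that ends the activity of light-activated rhodopsin, had levels of 15.41, 15.62 and 15.50 at ZT3, 15.38 at ZT7, 15.43 at ZT11, 15.34 and 15.39 at ZT15, 15.18 at ZT19 and 15.33 at ZT23. Its ZT3 arrays were the highest apart from ZT3 replicate 1, which lay below ZT11, and its ZT19 array was the lowest. Arr1, the other visual arrestin, which takes part in the uptake of rhodopsin from the light-sensing membrane, had 15.12, 15.30 and 15.16 at ZT3, 15.14 at ZT7, 15.19 at ZT11, 15.12 and 15.13 at ZT15, 14.92 at ZT19 and 15.002 at ZT23. Its ZT19 and ZT23 arrays were the lowest, and its ZT3 and ZT15 arrays overlapped.

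Between lowest and highest array, Arr1 spanned 0.37 (1.29-fold) and Arr2 0.44 (1.36-fold). The median span of all probe sets tested was 0.86, and 92.8% of them spanned at least as much as Arr1 and 87.2% as much as Arr2. Over the 7 arrays outside the 2-array set Arr1 and Arr2 had the same spans, while rdgC 1634061_a_at spanned 0.24 and Gprk1 0.33. The level of Arr2 minus that of Arr1, centred on its mean, stayed between -0.06 and 0.06 on the 9 arrays, a span of 0.12. Both genes lie near the top of the scale, where the highest value in the table is 15.91, and how far the array still follows changes at such levels was not tested.

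**Figure D1:**
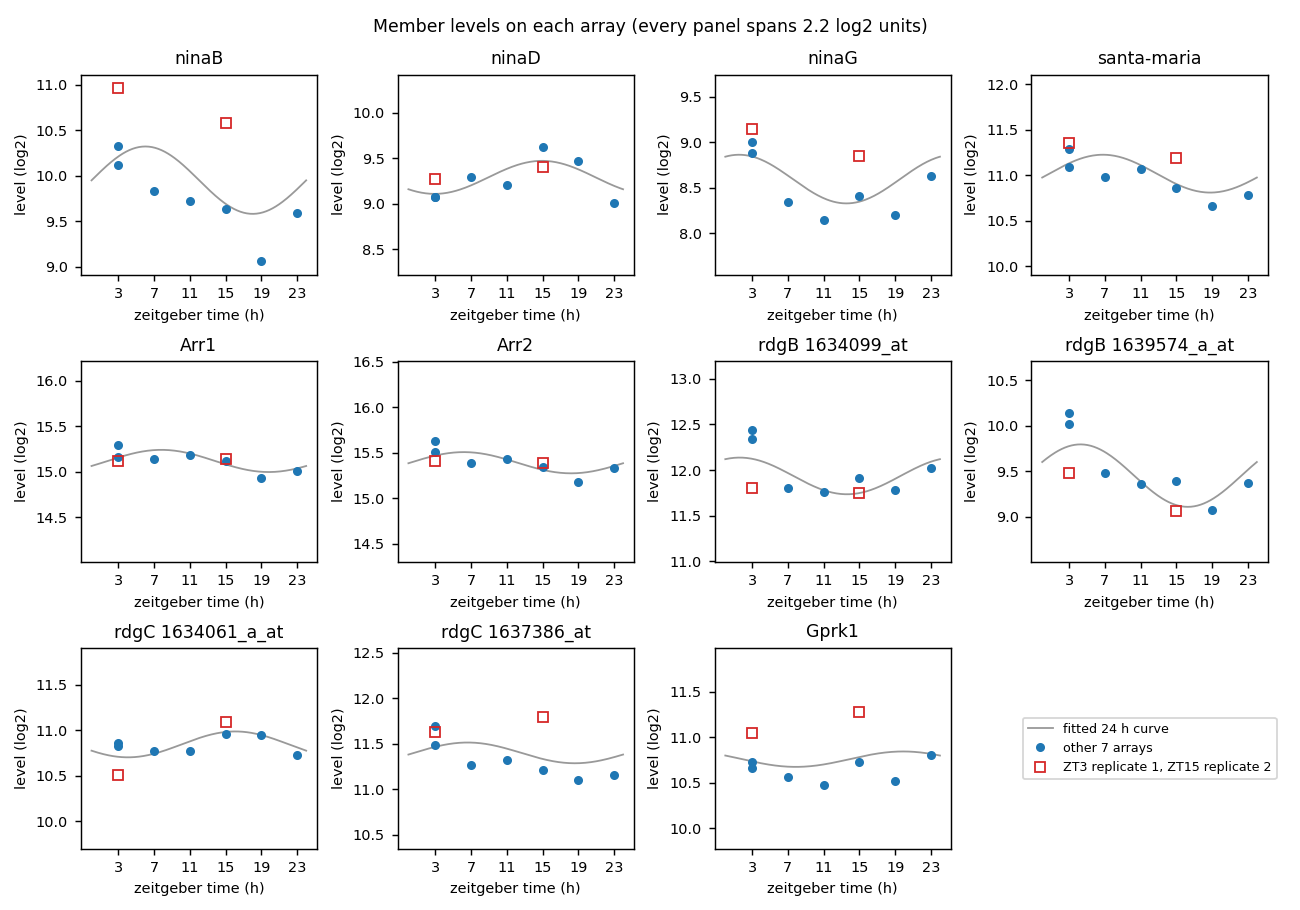
Level (log2) of each of the 11 member probe sets against zeitgeber time (h), 1 point per array, with the fitted 24 h curve in grey. Open red squares are ZT3 replicate 1 and ZT15 replicate 2, filled blue circles the other 7 arrays, and every panel covers the same range; Arr1 spans 0.37, Arr2 0.44, and ninaB has the widest spread, 1.90.

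The genes of carotenoid uptake and chromophore formation differed in how far they varied. ninaB encodes the oxygenase that cleaves carotenoid to the chromophore. Its levels were 10.97, 10.32 and 10.12 at ZT3, 9.84 at ZT7, 9.73 at ZT11, 9.63 and 10.58 at ZT15, 9.06 at ZT19 and 9.59 at ZT23. It was the most variable member, with a span of 1.90 (3.74-fold), which 17.8% of all probe sets reached. Both arrays of the 2-array set lay above all 7 others, and among those 7 the level was highest at ZT3 and lowest at ZT19. In the 2-array set the glia list also had medians of 11.24 and 11.32, against 10.81 to 11.24 in the other arrays; the part of glial RNA in the ninaB values was not tested.

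ninaG encodes an oxidoreductase needed to form the hydroxylated chromophore of flies. It had levels of 9.14, 9.004 and 8.88 at ZT3, 8.35 at ZT7, 8.14 at ZT11, 8.41 and 8.85 at ZT15, 8.20 at ZT19 and 8.63 at ZT23. All 3 ZT3 arrays were above every other array, although ZT15 replicate 2 lay only just below them, and the lowest array was ZT11.

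santa-maria encodes a scavenger receptor that acts upstream of ninaB in neurons and glia. Its levels were 11.35, 11.28 and 11.09 at ZT3, 10.99 at ZT7, 11.06 at ZT11, 10.86 and 11.19 at ZT15, 10.66 at ZT19 and 10.79 at ZT23. The late-night arrays were the lowest, and ZT3 and ZT15 overlapped.

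ninaD, a related scavenger receptor gene known for carotenoid uptake in the midgut, had its higher values at ZT15 and ZT19. It had levels of 9.27, 9.07 and 9.07 at ZT3, 9.29 at ZT7, 9.20 at ZT11, 9.62 and 9.41 at ZT15, 9.47 at ZT19 and 9.01 at ZT23. Both ZT15 arrays lay above all 3 ZT3 arrays. In ZT15 replicate 2 ninaD was at 9.41 while the gut list had its lowest median, 4.15. In ZT15 replicate 1 ninaD was at 9.62 beside a gut median of 10.09. At ZT19 it was at 9.47 beside 9.97, and at ZT23 at 9.01 beside 9.81. ZT3 replicates 2 and 3 had 9.07 and 9.07 beside gut medians of 5.69 and 5.51. The part of gut RNA in the ninaD values was not tested.

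Among the genes that restore the photoreceptor after light, rdgB encodes a phosphatidylinositol transfer protein that resupplies the membrane lipid used in the light response. Its probe set 1634099_at had levels of 11.80, 12.44 and 12.34 at ZT3, 11.81 at ZT7, 11.75 at ZT11, 11.91 and 11.75 at ZT15, 11.78 at ZT19 and 12.03 at ZT23. ZT3 replicates 2 and 3 were the highest arrays, while ZT3 replicate 1 lay among the low ones. The other probe set, 1639574_a_at, had 9.48, 10.15 and 10.02 at ZT3, 9.49 at ZT7, 9.36 at ZT11, 9.39 and 9.07 at ZT15, 9.08 at ZT19 and 9.38 at ZT23. The same ZT3 arrays were highest, and here both ZT15 arrays lay below all 3 ZT3 arrays.

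rdgC encodes the calcium-dependent phosphatase that dephosphorylates rhodopsin, and its probe sets did not follow each other. Probe set 1634061_a_at had 10.51, 10.85 and 10.83 at ZT3, 10.77 at ZT7, 10.77 at ZT11, 10.96 and 11.09 at ZT15, 10.95 at ZT19 and 10.72 at ZT23, so that both ZT15 arrays were above all ZT3 arrays. Probe set 1637386_at had 11.63, 11.70 and 11.49 at ZT3, 11.26 at ZT7, 11.32 at ZT11, 11.22 and 11.80 at ZT15, 11.10 at ZT19 and 11.16 at ZT23, with ZT3 high and ZT15 on either side of it. ZT3 replicate 1 was the lowest array on the first probe set and the third highest on the other.

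Gprk1 encodes the kinase that phosphorylates active rhodopsin. Its levels were 11.05, 10.66 and 10.73 at ZT3, 10.57 at ZT7, 10.47 at ZT11, 10.73 and 11.28 at ZT15, 10.52 at ZT19 and 10.80 at ZT23. The 2-array set was above all 7 other arrays, which spanned 0.33. In all, 2 of the 11 probe sets, those of ninaB and Gprk1, were higher in the 2-array set than in all 7 others, against 38.6% of all probe sets, and none was lower than all 7, against 17.3%.

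**Figure D2:**
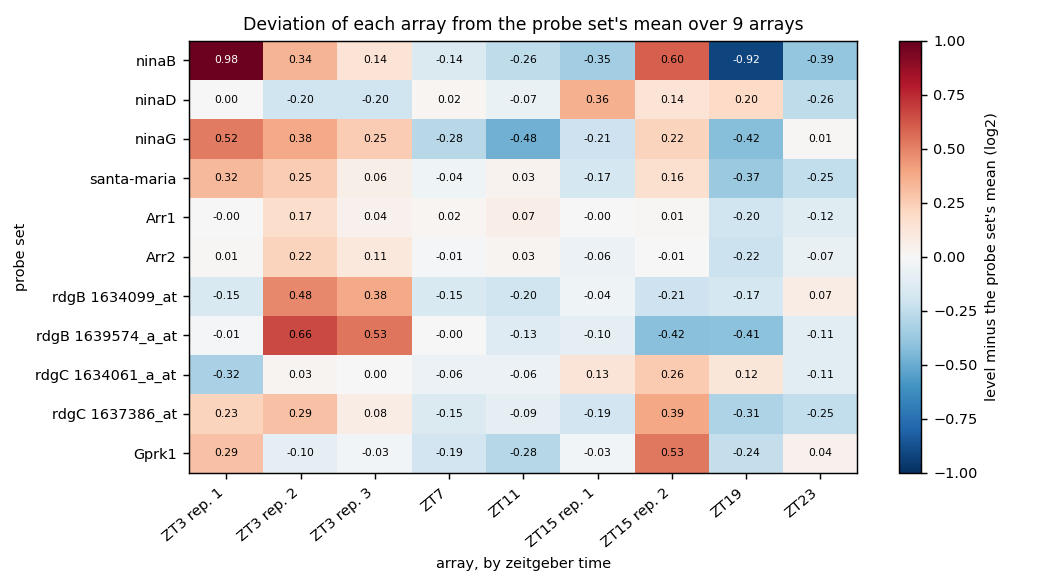
Level of each array minus the probe set's own mean over the 9 arrays (log2; colour and printed value), with member probe sets in rows and arrays in columns by zeitgeber time. The ZT19 array was the lowest for ninaB, santa-maria, Arr1, Arr2 and rdgC probe set 1637386_at, and ZT3 replicates 2 and 3 were the highest for both rdgB probe sets.

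By order of the mean level at each time, ZT3 came first for ninaB, ninaG, santa-maria, Arr1, Arr2, both rdgB probe sets and rdgC 1637386_at, and ZT15 came first for ninaD, rdgC 1634061_a_at and Gprk1. The ZT3 and ZT15 means each include 1 array of the 2-array set, and the other times include none. All ZT3 arrays also had low gut medians and the ZT7, ZT11, ZT19 and ZT23 arrays high ones. Gut RNA and time cannot be told apart between them. For Gprk1, ZT15 replicate 2 was at 11.28, while ZT15 replicate 1, at 10.73, lay below the ZT23 array at 10.80. Arr1 and Arr2 had the same order, from ZT3 through ZT11, ZT7, ZT15 and ZT23 to ZT19. The list of fat body genes, also near the top of the scale, had its lowest array median at ZT19 too. It was 15.20 there and 15.40 to 15.63 on the other arrays. An effect of the array at such levels was not tested. Neighbours in these orders mostly lay closer than the pooled standard deviation of the replicates (over the ZT3 and ZT15 arrays, 3 degrees of freedom). None of the 5 steps exceeded it for rdgB 1634099_at, rdgC 1637386_at or Gprk1, 1 did for ninaB, ninaD, Arr2, rdgB 1639574_a_at and rdgC 1634061_a_at, and 2 did for ninaG, santa-maria and Arr1. The widest steps in log2 level were 0.53 for ninaB, from ZT23 to ZT19 with a pooled standard deviation also of 0.53, 0.40 for rdgB 1639574_a_at, from ZT3 to ZT7 with 0.32, and 0.37 for ninaG, from ZT3 to ZT23 with 0.21. The ZT19 array was the lowest for 5 of the 11 probe sets, against 26.9% of all probe sets, and a ZT3 array the highest for 7, against 44.3%.

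No member followed a 24 h curve past the threshold. In limma's moderated F test of a cosine and a sine over the 9 arrays, 0 of the 11 probe sets passed an adjusted p of 0.05, against 0.0330% of all 12105 probe sets (4 probe sets). At an unadjusted p under 0.05, 1 member probe set was counted, against 4.33% of all. That was rdgB 1639574_a_at, with an amplitude of 0.34 (SE 0.12) on the log2 scale, 1.61-fold from trough to peak, and a fitted peak at ZT4.3 (SE 1.66 h). Its adjusted p in limma was 1.00. The remaining rdgB probe set had 0.20 (SE 0.10) at ZT1.6.

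Fitted amplitudes of the members ran from 0.08 for Gprk1 to 0.37 for ninaB, with a median of 0.18 over the 11 probe sets and 0.16 over all probe sets tested. ninaB had the largest amplitude in this fit and a wide error, 0.37 (SE 0.27), at ZT6.0 (SE 2.76 h). On leaving out 1 array it ran from 0.164 without ZT19 to 0.576 without ZT7. Without ZT19 it lay below ninaG (0.334), rdgB 1639574_a_at (0.308), Gprk1 (0.256), rdgB 1634099_at (0.213) and ninaD (0.172). rdgB 1639574_a_at also had the larger amplitude without ZT3 replicate 1, without ZT15 replicate 1, without ZT23 and with the gut marker mean as a covariate. With the photoreceptor marker mean as a covariate ninaB had 0.159 and rdgB 1639574_a_at 0.124. There ninaB lay below ninaG (0.282), Gprk1 (0.270), rdgC 1634061_a_at (0.254), rdgC 1637386_at (0.215) and rdgB 1634099_at (0.179). The SE of the ninaB amplitude was 0.218 without ZT19 and 0.270 with this covariate. Its distances from the members above it were smaller than that in both fits. In the fit of all 9 arrays without a covariate ninaG had 0.27 (SE 0.14) at ZT1.5 and santa-maria 0.21 (SE 0.12) at ZT6.8. ninaD had 0.18 (SE 0.07) at ZT14.9, a 1.29-fold swing, and rdgC 1634061_a_at 0.14 (SE 0.07) at ZT16.1. Arr1 and Arr2 each had 0.12 (SE 0.07), at ZT7.8 and ZT6.2, but 0.0174 and 0.0311 after quantile normalization.

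With the 2-array set as a block, errors narrowed for ninaB, whose amplitude became 0.40 (SE 0.11, limma's adjusted p = 0.25), and for ninaG, at 0.29 (SE 0.09, adjusted p = 0.29). Again 0 of the 11 passed, against 0.248% of all probe sets, and 3 (ninaB, ninaG and rdgB 1639574_a_at) had an unadjusted p under 0.05, against 16.9% of all. Without the 2-array set 0 of the 11 passed, against 68 of all 12105 probe sets. With array weights 2 of the 11 passed in limma, ninaD (0.31, adjusted p = 0.0408) and rdgB 1639574_a_at (0.51, adjusted p = 0.0464). That fit called 1177 of all 12105 probe sets. At an unadjusted p under 0.05 it counted 7 of the 11, against 4482 of all 12105.

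ZT15 and ZT3, the times with replicates, did not differ past the threshold for any member. limma called 0 of the 11 at an adjusted p of 0.05 and 0 at an unadjusted p under 0.05, where over all probe sets it called 0.00% and 2.35%. The median difference, ZT15 minus ZT3, was -0.15 over the 11 member probe sets and -0.04 over all, and 8 of the 11 were below 0, against 57.9% of all. The intervals were wide at this number of arrays. For rdgB 1639574_a_at the mean level was 9.88 ± 0.36 (SD, n = 3) at ZT3 and 9.23 ± 0.23 (SD, n = 2) at ZT15, a difference of -0.65 (SE 0.27, 95% interval -1.38 to 0.07, adjusted p = 1.00 in limma), or 1.57-fold lower at ZT15.

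The other members differed by less. ninaG differed by -0.38 (SE 0.20, 95% interval -0.92 to 0.17), ninaB by -0.36 (SE 0.42, -1.47 to 0.74) and rdgB 1634099_at by -0.36 (SE 0.25, -1.03 to 0.31). santa-maria differed by -0.22 (SE 0.19). ninaD was higher at ZT15 by 0.38 (SE 0.17, -0.06 to 0.82). Arr2 differed by -0.15 (SE 0.15, -0.55 to 0.25) and Arr1 by -0.07 (SE 0.14, -0.45 to 0.32), so that the interval for Arr1 runs from 0.731 to 1.25 times its ZT3 level. rdgC differed by 0.30 (SE 0.18) on 1634061_a_at and by -0.10 (SE 0.23) on 1637386_at, and Gprk1 by 0.19 (SE 0.25).

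The arrays of the 2 times did not overlap for 5 of the 11 member probe sets, against 13.0% of all probe sets. Both ZT15 arrays were below all 3 ZT3 arrays for ninaG, Arr2 and rdgB 1639574_a_at (9.62% of all), and above for ninaD and rdgC 1634061_a_at (3.42% of all). Within the 2-array set the difference is that of ZT15 replicate 2 minus ZT3 replicate 1. Within the other arrays it is ZT15 replicate 1 minus the mean of ZT3 replicates 2 and 3. These differences had the same sign for 9 of the 11, against 52.9% of all. The difference was -0.41 and -0.69 for rdgB 1639574_a_at, -0.30 and -0.53 for ninaG, -0.39 and -0.59 for ninaB, and 0.13 and 0.55 for ninaD. For Arr1 it was 0.02 and -0.11, and for rdgC 1637386_at 0.16 and -0.37. The photoreceptor genes measured beside the members also had lower values at ZT15: all 11 differences were below 0, with a median of -0.30, and none passed. With their mean as a covariate some differences turned positive, each by less than its SE. These were Arr1 (0.0905, SE 0.323), Arr2 (0.0663, SE 0.320), rdgB 1634099_at (0.0667, SE 0.500) and rdgC 1637386_at (0.33, SE 0.447). In that fit the difference was -0.299 (SE 0.571) for rdgB 1639574_a_at, 0.0640 (SE 0.324) for ninaD and -0.0604 (SE 0.416) for santa-maria. For ninaG it was -0.215 (SE 0.455) and for rdgC 1634061_a_at 0.677 (SE 0.342). With the 2-array block 0 members passed, and 3 of 11 (rdgB 1639574_a_at, ninaB and ninaG, all lower at ZT15) had an unadjusted p under 0.05, against 12.0% of all and 6.23% of all with the lower value at ZT15. Without the 2-array set, in 1 ZT15 array against 2 ZT3 arrays, rdgB 1639574_a_at passed (-0.69, limma's adjusted p = 0.0356), in a fit that called 2190 probe sets. Its error there comes from the spread between those 2 ZT3 arrays (1 residual degree of freedom). That spread was moderated by limma toward the one over all probe sets tested. The lone ZT15 array is assumed to vary like those 2. These arrays also differed in RNA of other body parts. The gut list median was 10.09 in ZT15 replicate 1 and 5.69 and 5.51 in ZT3 replicates 2 and 3. The testis and accessory gland median was 11.16 against 9.14 and 9.06. The part of such RNA in the differences within the other arrays was not tested.

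**Figure D3:**
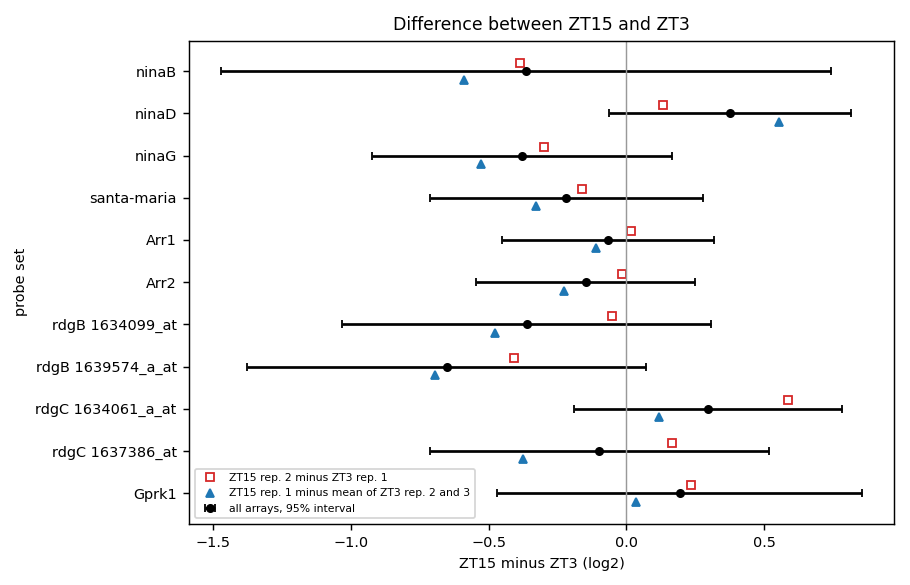
Difference in log2 level between ZT15 and ZT3 for each member probe set. Black circles with bars are limma's estimates with 95% intervals, all of which include 0; open red squares are the difference within the 2-array set and blue triangles that within the other arrays, which lie on opposite sides of 0 for Arr1 and rdgC 1637386_at.

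The probe sets of rdgB and rdgC were set against each other on each array. The level of rdgB 1639574_a_at minus that of 1634099_at, centred on its mean, was 0.14, 0.18 and 0.15 at ZT3, 0.15 at ZT7, 0.07 at ZT11, -0.06 and -0.21 at ZT15, -0.24 at ZT19 and -0.18 at ZT23. The 5 arrays from ZT3 to ZT11 did not overlap the 4 from ZT15 to ZT23, and the 2-array set lay with the other arrays of its times. This division of the times was made after the values were seen, so it carries no test. Of the 550 genes with exactly 2 tested probe sets, 1.82% (10 genes, rdgB among them) were divided in this way. The span of the rdgB difference was 0.41, which 93.1% of those genes reached.

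For rdgC the difference of 1637386_at minus 1634061_a_at was 0.55, 0.26 and 0.07 at ZT3, -0.09 at ZT7, -0.03 at ZT11, -0.32 and 0.13 at ZT15, -0.43 at ZT19 and -0.14 at ZT23. It spanned 0.98, close to the median of 0.97 over the 550 genes, and the times overlapped. The annotation does not say which transcripts each probe set detects, so no isoform is named.

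**Figure D4:**
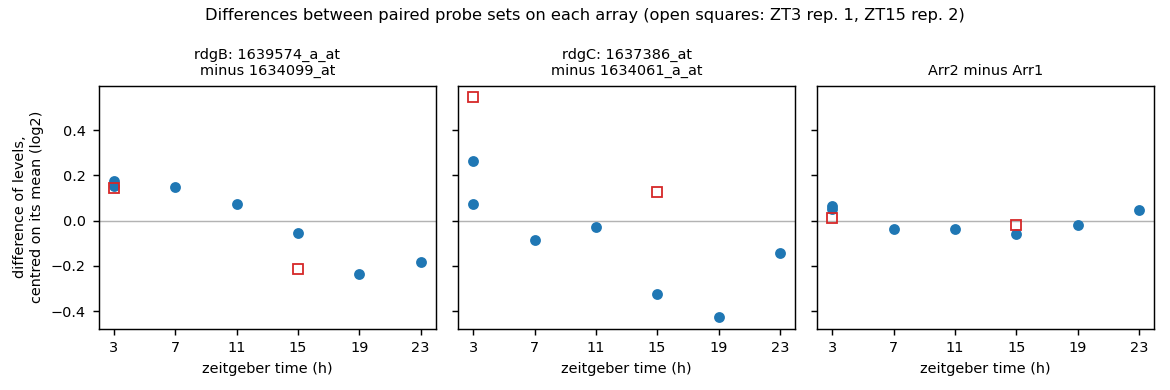
Difference between paired probe sets on each array, centred on its mean (log2), against zeitgeber time (h), for rdgB, rdgC and Arr2 minus Arr1. Open red squares are ZT3 replicate 1 and ZT15 replicate 2; the rdgB difference is above 0 on the 5 arrays from ZT3 to ZT11 and below 0 on the 4 from ZT15 to ZT23, and the Arr2 minus Arr1 difference spans 0.12.

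Other genes of the same pathways gave no call either. Of 10 symbols listed for the chromophore and retinoid path, 8 were measured, and none passed for the rhythm or for ZT15 against ZT3; the median amplitude was 0.20 and the median difference -0.08. The smallest p in this list was that of pinta, which encodes a retinoid-binding protein of the eye. Its levels were 10.49, 10.25 and 10.31 at ZT3, 9.25 at ZT7, 9.24 at ZT11, 9.82 and 10.19 at ZT15, 10.25 at ZT19 and 10.40 at ZT23. Its low arrays were those at ZT7 and ZT11, and its amplitude was 0.65 (SE 0.15) at ZT22.1 (SE 0.67 h; limma's adjusted p = 0.88, and adjusted p = 0.0936 with the 2-array block). The retinol dehydrogenase gene Pdh had 0.22 (SE 0.08) at ZT5.1, and Snmp2 and emp, of the same scavenger receptor family as ninaD, had 0.22 (SE 0.07) at ZT17.6 and 0.19 (SE 0.08) at ZT7.0.

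Of 16 genes listed for shut-off and calcium control, 11 were measured and none passed; the median amplitude was 0.15 and the median difference -0.14. inaC, the eye protein kinase C gene, had an amplitude of 0.33 (SE 0.08) at ZT4.4, laza, a lipid phosphatase gene, 0.42 (SE 0.11) at ZT0.5 and stops 0.28 (SE 0.11) at ZT4.4. CanA-14F, a calcineurin subunit gene, had 0.15 (SE 0.09). All 11 measured genes of the 12 listed for the phosphoinositide path likewise missed the threshold, with a median amplitude of 0.14 and a median difference of -0.19. In that list inaE, a diacylglycerol lipase gene, had 0.22 (SE 0.10) at ZT4.0, Cds, a gene of phosphatidylinositol synthesis, 0.14 (SE 0.07) at ZT3.4 and rdgA, the diacylglycerol kinase gene, 0.50 (SE 0.29) at ZT8.9. Of 15 genes listed for rhodopsin synthesis and transport only 5 were tested, with a median amplitude of 0.11 and none passing; Cnx99A, a rhodopsin chaperone gene, had 0.13 (SE 0.09), Rep, a Rab escort protein gene, 0.15 (SE 0.14), Crag 0.09 (SE 0.11) and Sec61beta, a gene of the protein channel of the endoplasmic reticulum, 0.11 (SE 0.14). Of the photoreceptor list, inaD, the scaffold gene of the signalling complex, had 0.36 (SE 0.07) at ZT2.1, trpl, the gene of a light-activated channel, 0.33 (SE 0.11) at ZT7.5 and Hdc, the gene for the histamine-making enzyme, 0.27 (SE 0.10) at ZT1.1, and none of the 11 passed.

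For the 3 member probe sets that spanned at least 1 on the log2 scale, as 40.2% of all probe sets did, the named genes of most similar pattern were sought by Pearson's r over the 9 arrays. These values are descriptions over arrays that share the 2-array set, picked as the highest of all genes tested. For ninaB they were Elovl7 (r = 0.985 over 9 arrays, 0.963 over the 7 outside the 2-array set), Sol1 (0.984 and 0.997) and Ror (0.983 and 0.973). The levels of Sol1 ran from 4.87 to 5.88, near the filter level of 5. For ninaG they were Surf6 (0.988 and 0.989), CG9391 (0.986 and 0.979) and Dhps (0.985 and 0.981), and for rdgB 1639574_a_at LTV1 (0.978 and 0.973), CG33111 (0.973 and 0.980) and Kah (0.968 and 0.975).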

How the data were processed

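The deposited table holds 1 intensity per probe set and array, made by the authors with GCRMA, per the submitters' processing notes. No source used here states the GCRMA version. Log2 of the deposited values reached 22.95. Against the log2 concentration of the hybridization controls, the natural log of the deposited intensity had a slope of 1.05 ± 0.0597 (SD, n = 9 arrays) and its log2 a slope of 1.51. The natural log was therefore taken as the authors' log2 value; on the other scale all differences would be 1.44 times as large.

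Control probe sets (183) were left out. Names came from the platform annotation, updated by Entrez identifier with a RefSeq gene table (13544 of 13647 probe sets with 1 gene matched). Probe sets reaching 5 on at least 2 arrays (12105) were tested with limma 3.58.1 in R 4.3.3 (lmFit, eBayes; two-sided, Benjamini-Hochberg over all of them, threshold 0.05). The rhythm fit had 6 residual degrees of freedom and the ZT15 against ZT3 fit, with 6 group means, 3. Scripts were tested on simulated data.

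All members were named. Of each other list up to 4 genes of smallest rhythm p were named, and up to 3 genes nearest in pattern to members spanning at least 1. The members and lists were chosen with earlier results of these data known. No sequences or coordinates are given.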

Additional observations from a re-analysis of the deposited data

How the results depend on the processing

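The members' amplitudes and differences rest on 9 arrays, with 1 array at 4 of the 6 times. Their errors therefore come from the ZT3 and ZT15 replicates or from the curve's residuals, each moderated by limma over all probe sets tested. Over the alternatives run, 2 of 224 amplitudes and 1 of 202 differences of members passed the threshold. The exceptions are the 2 members called for a rhythm with array weights and the 1 called for ZT15 against ZT3 without the 2-array set, named above; no left-out single array gave a member call. Over all probe sets, the count of 4 for the rhythm was 30 with the 2-array set as a block, 68 without it, 2 with the photoreceptor covariate, 15 with the gut covariate, 1177 with array weights, 0 with time as a factor (344 at an unadjusted p under 0.05) or 1 mean per time (358), and 2 to 11 on leaving out each array. The count of 0 for ZT15 against ZT3 was 2190 without the 2-array set and 0 in every other alternative, with 284 at an unadjusted p under 0.05 in limma. Of the 202 differences 9 changed sign, none past the threshold. With the photoreceptor covariate these were Arr1 (0.0905), Arr2 (0.0663), rdgB 1634099_at (0.0667) and rdgC 1637386_at (0.332). rdgC 1637386_at also turned with the gut covariate (0.0188) and averaged with the other rdgC probe set (0.0997). On leaving out each array, ninaB ranged from -0.836 (without ZT15 replicate 2) to 0.110 (without ZT15 replicate 1), rdgC 1637386_at from -0.388 to 0.193 and Gprk1 from -0.0828 to 0.471, each at the same left-out arrays. Without ZT15 replicate 1 ninaG was -0.161 and santa-maria -0.0502, without ZT15 replicate 2 they were -0.596 and -0.384, and without ZT3 replicate 2 Arr1 was -0.0151. The cause was not tested. The fit of the ZT3 and ZT15 arrays alone gave the same calls, since the other times add no residual degrees of freedom. With the replicate number as a replicate block, 0 probe sets and 0 members were called (23 probe sets at an unadjusted p under 0.05). Same-numbered arrays deviated oppositely (r = -0.86 for number 1 and -0.81 for number 2). The deviations of the 2 ZT15 arrays from their mean are exact opposites, so these r values are not 2 separate observations about replicate numbers. A crossed replicate block, chosen after seeing the data, called 0 (586 at an unadjusted p under 0.05).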
